A study of Rattus norvegicus with 9 samples.

Results

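Schwann cells cultured from the sciatic nerve were compared with skin-derived precursors, or SKPs, cultured from dorsal trunk skin of adult Sprague Dawley rats. The comparison took the 3 arrays titled as nerve Schwann cells and the 3 titled as SKPs, 6 of the 9 arrays of the study, and covered 14506 genes, which is every gene with a feature that carries a single symbol in the platform annotation. The other 3 arrays, Schwann cells grown from SKPs, entered the rescaling, the shared estimate of spread and the choice of feature for genes with several. They also entered the filter on dim genes among the alternative settings. Each sample was total RNA from an independent culture hybridised to a whole-transcript rat gene array, and no allele, drug or dose is named for any group.

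Nerve cells were freed from sciatic nerve by enzymes, plated in a medium for Schwann cell growth, passaged a single time and lysed at confluence. SKPs were freed from skin by enzymes, kept as floating spheres under conditions that promote proliferation, and lysed after passaging. Tissue of origin, medium, attachment and density therefore all differ between the groups and cannot be told apart. The SKP arrays are described as a reanalysis of samples deposited earlier, so the set of arrays and the group cannot be told apart either. The tissue field of the labels reads dermis for all samples, the nerve cells included, and the groups were taken from the titles. How many animals stand behind each sample is not given in the sources used here. The p-values therefore measure the spread between samples within the groups, the Schwann cells grown from SKPs included.

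Schwann cells are the glia of peripheral nerve. They arise from the neural crest under the transcription factor Sox10, depend on axonal neuregulin read through ErbB2 and ErbB3 receptors, and in culture lose most myelin output and take on an immature or repair state. SKPs are sphere-forming precursors of the dermis that share features with the dermal papilla and can give rise to mesenchymal and glial cells, Schwann cells among them.

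Levels are on the log2 scale of the deposited values after cyclic loess, which rescales the arrays to each other, and a difference is always nerve Schwann cells minus SKPs with the standard error of the limma fit after the ± sign. Calls rest on a Benjamini-Hochberg adjusted p below 0.05 over all 14506 genes. Called this way, 3244 genes (22.4%) stood higher and 3716 genes (25.6%) stood lower in the nerve cells, so 48.0% of all genes were called. In 9133 genes (63.0%) no nerve array overlapped an SKP array. At least 16-fold differences separated 99 of the higher and 59 of the lower genes. The median difference of all genes was -0.03. The deposited values put the nerve arrays higher as a whole, with array medians of 6.82 to 6.87 against 6.20 to 6.27 in the SKP arrays and a median difference of 0.46. Without rescaling, 7211 genes were called higher and 2158 lower, and 77.0% of the calls were higher in place of 46.6%. Centring on the array medians gave 2474 and 4588 (35.0% higher, median difference -0.15), and quantile normalisation 3223 and 3743. In all 4 scalings 2224 genes (15.3%) were higher and 2155 (14.9%) were lower. Counts for a gene group below are read against these shares, and the counts under all 4 scalings and as deposited follow in parentheses. Where a list is said to turn as deposited, the balance of all genes turned to more higher as well.

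**Figure D1:**
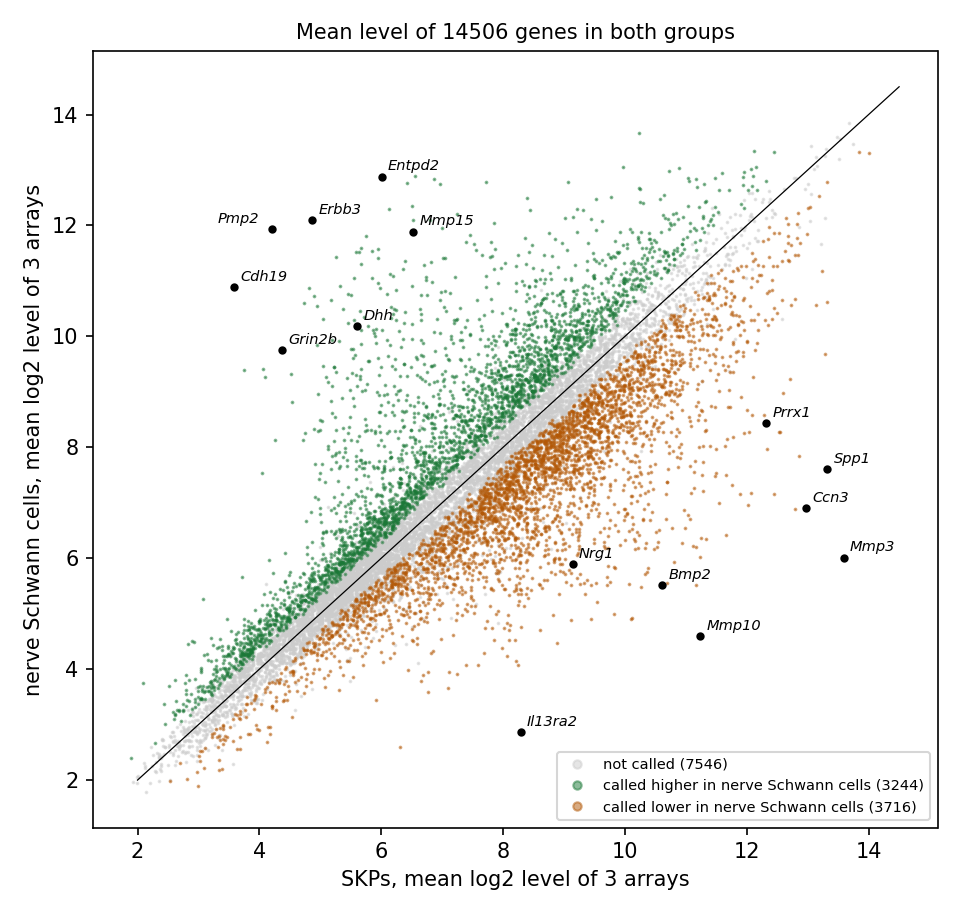
Mean log2 level of each of the 14506 genes in the SKPs (x axis) and in nerve Schwann cells (y axis), 3 arrays each, after cyclic loess. Green genes were called higher (3244) and brown genes lower (3716) in nerve Schwann cells, the black line marks equal levels, and the named genes lie far from it on both sides.

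The Schwann cell label was checked against its markers. All 8 of the 8 Schwann cell markers measured were higher in nerve Schwann cells (8 and 0 under all 4 scalings, 8 and 0 as deposited), and their mean level was 10.84 to 10.86 in the nerve arrays against 5.66 to 5.87 in the SKP arrays. Cdh19, the cadherin of Schwann cell precursors, averaged 10.89 ± 0.09 in the nerve arrays and 3.58 ± 0.27 in the SKP arrays (SD, n = 3 each). Sox10 read 11.21, 11.37 and 11.43 in the nerve arrays and 6.69, 6.99 and 6.75 in the SKP arrays. The groups stood far apart for both, with differences of 7.32 ± 0.27, adjusted p = 6.16e-07 and 4.53 ± 0.25, adjusted p = 5.26e-06. Since these are bulk cultures, fewer cells of a type and less RNA per cell cannot be told apart.

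Of the 10 fibroblast and dermal mesenchyme markers, none was called higher by limma (none at an unadjusted p under 0.05 either) and 7 were lower in nerve Schwann cells (0 and 7 under all 4 scalings, 0 and 7 as deposited). Among these were Thy1 (-4.55), a surface glycoprotein of fibroblasts and neurons, Pdgfra (-3.90), the PDGF receptor of mesenchymal cells, and Prrx1 (-3.88), a mesenchymal homeobox gene. The count was 4 without nerve array 1 or nerve array 3. Prrx1 read 8.39, 9.72 and 7.20 in the nerve arrays and 12.65, 12.71 and 11.58 in the SKP arrays. The mean of the marker list was 9.44, 10.20 and 8.91 in the nerve arrays and 12.33, 12.33 and 10.72 in the SKP arrays, so nerve array 2 was the highest of its group and SKP array 3 the lowest of the SKPs. Col1a1, the main chain of type I collagen, read 12.02, 12.02 and 12.21 in the nerve arrays and 13.41, 13.56 and 12.16 in the SKP arrays, with overlapping groups and a difference of -0.96 ± 0.36, adjusted p = 0.0554, which was not called. It was called without SKP array 3 and, with all arrays, under median centring, array weights and the filter on dim genes. The part of fibroblasts in the comparison was not tested. Among the markers of other cells Mcam (4.97), Cspg4 (-3.59), a pericyte and glial precursor proteoglycan, and Cdh1 (4.10) differed widely. Of 9 endothelial markers 2 were higher and 1 lower, of 7 melanocyte markers 2 and 3, of 6 keratinocyte markers 1 and 1, of 10 smooth muscle and pericyte markers 3 and 2, and of 7 perineurial markers 0 and 3. Of 8 neuron markers 2 were higher and 1 lower, of 6 skeletal muscle markers 1 and 1, of 6 mast and T cell markers 2 and 1, and of 7 adipocyte markers none was called by limma, though 1 was higher and 2 lower at an unadjusted p under 0.05. These small counts moved when arrays were left out. Endothelial markers had 1 higher without nerve array 2 or 3 and 2 lower without SKP array 2 or 3, and melanocyte markers 1 higher without nerve array 1 or 2 or SKP array 2 or 3. Smooth muscle and pericyte markers had 1 higher without any 1 nerve array. Keratinocyte and mast and T cell markers had 0 lower without any 1 nerve array and without SKP array 1 or 3. Neuron markers had 1 higher without nerve array 1 or 2. Adipocyte markers had 1 lower without SKP array 2, and 1 higher and 2 lower without SKP array 3. Among the arrays of Schwann cells grown from SKPs, leaving out array 1 gave 2 higher keratinocyte markers, array 2 gave 2 lower neuron markers, and array 2 or 3 gave 1 higher adipocyte marker.

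SKP array 1 and SKP array 3 each stood apart on some gene lists. On the 12 macrophage markers SKP array 1 had a mean of 8.39 against 6.55 and 5.96 in the other SKP arrays and 5.69 to 5.78 in the nerve arrays. Lyz2, a macrophage lysozyme, read 5.90, 5.78 and 5.56 in the nerve arrays and 11.14, 7.28 and 5.44 in the SKP arrays and was not called. Cd14, the co-receptor for bacterial lipopolysaccharide, was the single macrophage marker called (-4.04 ± 0.42, adjusted p = 9.93e-05), and the count of lower markers was 2 without SKP array 2 and 7 without SKP array 3. Besides its low fibroblast markers, SKP array 3 had lower cell cycle genes than the other SKP arrays (7.19 against 8.64 and 8.36) and higher glycolysis and hypoxia genes (10.20 against 9.49 and 9.50). Mlana, a melanosome protein, read 4.99, 4.92 and 5.02 in the nerve arrays and 6.95, 7.14 and 10.16 in the SKP arrays, highest in SKP array 3. Euclidean distances between arrays over all genes set SKP array 3 apart but not SKP array 1. They were 49.4 between SKP arrays 1 and 2 and 80.2 and 70.9 from these to SKP array 3, against 29.4 to 35.9 within the nerve arrays. Without SKP array 1, 2906 genes were called higher and 3443 lower, and without SKP array 3, 3155 and 3879. What part these differences between SKP arrays play in each result was not tested, and counts that moved by more than 1.5 times without an array are given with that array.

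**Figure D2:**
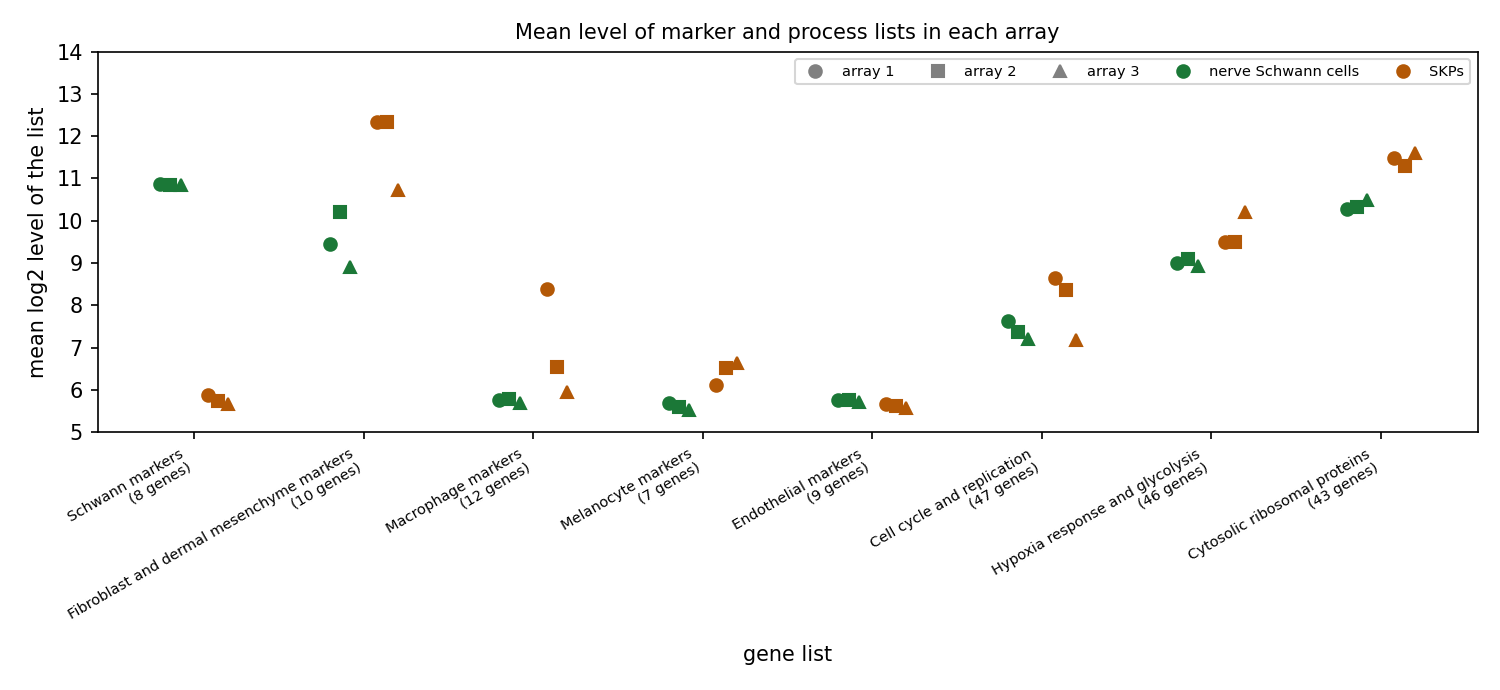
Mean log2 level of the measured genes of 8 marker and process lists (x axis) in each nerve Schwann cell array (green) and SKP array (brown), with the array number given by the marker shape. SKP array 1 lies highest on the macrophage markers (8.39), SKP array 3 lowest of the SKP arrays on fibroblast markers (10.72) and cell cycle genes (7.19), and the nerve arrays lie together on the Schwann cell markers (10.84 to 10.86).

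The largest differences in the direction of nerve Schwann cells included genes of glial membranes and adhesion. Pmp2, the fatty acid binding protein of peripheral myelin, read 12.49, 11.63 and 11.71 in the nerve arrays and 4.15, 4.49 and 3.98 in the SKP arrays, a difference of 7.74 ± 0.24, adjusted p = 3.19e-07. Erbb3, the neuregulin receptor of Schwann cells, read 12.09, 12.12 and 12.10 in the nerve arrays and 4.57, 4.82 and 5.22 in the SKP arrays, a difference of 7.24 ± 0.34, adjusted p = 2.23e-06. No SKP array came near any nerve array for either gene. After these and Cdh19 came the ectonucleotidase Entpd2 (6.87), the membrane-anchored Plekhb1 (6.36), the adhesion molecules Igsf11 (6.33) and L1cam (6.17), Cmtm5 (6.17), the transporter family gene Slc35f1 (6.07), the laminin receptor subunit Itgb4 (6.06), the proteolipid Gpm6b (5.97) and the adhesion molecule Cadm3 (5.94). In the direction of SKPs the list began with the stromelysins Mmp3 (-7.58) and Mmp10 (-6.64), the matricellular gene Ccn3 (-6.06), the water channel Aqp1 (-5.89), osteopontin or Spp1 (-5.72), the thyroid hormone deiodinase Dio2 (-5.64) and the decoy receptor Il13ra2 (-5.43). Serpinf1 (-5.29), Ptgs1 (-5.25), Lrrc15 (-5.22), Kiaa0040 (-5.20) and the macrophage elastase Mmp12 (-5.19) followed. These 24 genes were called under all 4 scalings.

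Matrix metalloproteinases, which cut collagens, proteoglycans and other matrix proteins, held some of the widest gaps. Of 32 measured genes for these enzymes, related proteases and their inhibitors, 6 were higher and 13 lower (6 and 13 under all 4 scalings, 12 and 13 as deposited). Mmp3 read 6.35, 5.96 and 5.71 in the nerve arrays and 13.59, 13.71 and 13.46 in the SKP arrays, a difference of -7.58 ± 0.66, adjusted p = 3.92e-05. Mmp10 read 4.66, 4.54 and 4.59 in the nerve arrays and 11.18, 11.85 and 10.69 in the SKP arrays, a difference of -6.64 ± 0.25, adjusted p = 6.33e-07. In both genes the 3 SKP arrays lay together and far above every nerve array. Mmp12 (-5.19), the collagenase Mmp13 (-5.02), the protease inhibitor Serpine2 (-3.60) and the gelatinase Mmp9 (-3.31) were also lower in nerve Schwann cells. The membrane-type enzymes Mmp15 (5.37) and Mmp17 (1.83), the aggrecanases Adamts9 (1.77) and Adamts4 (1.56), Mmp23 (0.89) and the matrix-bound inhibitor Timp3 (4.09) were higher. Mmp15 read 11.84, 11.92 and 11.92 in the nerve arrays and 6.58, 6.56 and 6.42 in the SKP arrays. The members named here were therefore split, with secreted stromelysins and collagenase toward SKPs and 3 membrane-bound members toward nerve Schwann cells. Of these 3, Mmp23 differed by less than 2-fold. A further 13 of the 32 genes were not called.

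The promoters of the 4 metalloproteinase genes with the widest gap among those lower in nerve Schwann cells are shown because the same short AP-1 motif stands near the start site in each. AP-1 is a dimer of Fos and Jun proteins and a known regulator of stromelysin and collagenase genes. The sequences are RefSeq's on build GRCr8, the 120 bases before the annotated start site on the plus strand, and capitals mark the letters TGANTCA, a motif that reads alike on both strands. Mmp3 lies at chr8:12925161-12925280, Mmp10 at chr8:12974587-12974706, Mmp12 at chr8:12866532-12866651 and Mmp13 at chr8:12782709-12782828.
Mmp3: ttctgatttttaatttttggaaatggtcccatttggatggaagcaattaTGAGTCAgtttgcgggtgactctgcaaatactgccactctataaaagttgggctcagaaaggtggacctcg
Mmp10: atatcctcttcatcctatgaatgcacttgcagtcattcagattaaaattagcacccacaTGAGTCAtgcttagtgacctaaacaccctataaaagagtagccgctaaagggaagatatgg
Mmp12: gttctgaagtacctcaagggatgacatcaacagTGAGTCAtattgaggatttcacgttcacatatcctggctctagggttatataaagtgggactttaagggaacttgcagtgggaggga
Mmp13: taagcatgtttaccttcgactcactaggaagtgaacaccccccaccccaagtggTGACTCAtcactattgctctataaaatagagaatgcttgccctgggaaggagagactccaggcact

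The motif was searched in the 250 bases before the start site, where it occurred in 694 of 12536 promoters of measured genes (5.54%). Among genes called at least 16-fold lower it occurred in 11 of 42 promoters (26.2%), and among genes called at least 16-fold higher in 5 of 77 (6.49%). In the metalloproteinase list it occurred in 5 of the 9 promoters of members called lower (55.6%) and in 1 of 14 of the rest (7.14%). The 5 are those shown and that of the urokinase receptor gene Plaur (-2.10, named for its match). The promoters shown are also among the 11 above and lie close together on chromosome 8, so the sets are not independent. The first base of the match lay 71 bases before the start site in Mmp3, 61 bases in Mmp10, 87 bases in Mmp12 and 66 bases in Mmp13. The other strongly lower genes with a match included Lrrc15, the gap junction gene Gja1 (-4.43), the retinoic acid binding protein Crabp1 (-4.26) and the transcriptional repressor Prdm1 (-4.83). Of 6 motifs searched on both strands this was the one with the widest spread between these sets. The others were the SOX motif and its shorter core ACAAT, which overlap, the E-box CANNTG, the CRE TGACGTCA and the HRE ACGTGC. The SOX motif, ACAAAG or ACAATG, occurred in 20.1% of all promoters, 27.3% of those at least 16-fold higher and 16.7% of those at least 16-fold lower. A match is a description of letters and says nothing of what binds there.

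Of the genes that encode AP-1 subunits, Fos, Jun and Junb are given here, and these 3 went both ways. Jun and Junb were chosen with their values known beforehand. Other Fos and Jun family genes are not described, so the 3 do not stand for the family. Fos read 9.76, 9.70 and 9.75 in the nerve arrays and 6.76, 6.88 and 7.01 in the SKP arrays, a difference of 2.86 ± 0.23, adjusted p = 2.57e-05. Jun, a regulator of the repair state of Schwann cells, read 10.68, 11.06 and 11.41 in the nerve arrays and 9.75, 9.64 and 9.08 in the SKP arrays, a difference of 1.56 ± 0.32, adjusted p = 0.00365. Junb read 8.33, 8.44 and 8.31 in the nerve arrays and 9.86, 9.90 and 9.32 in the SKP arrays, a difference of -1.33 ± 0.28, adjusted p = 0.00418. The groups did not overlap in any of the 3, as in 63.0% of all genes. In the immediate early list 8 of 31 measured genes were higher and 8 lower (7 and 7 under all 4 scalings, 15 and 7 as deposited), with the stress factor Atf3 (3.90), the orphan nuclear receptor Nr4a1 (3.10) and Egr3 (2.20) higher and the growth arrest gene Gadd45a (-3.54), Klf4 (-3.38) and the phosphatase Dusp1 (-2.21) lower.

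Transcription factors of the Schwann cell lineage were more often higher than lower in the nerve cells. Of 26 measured, 13 were higher and 4 lower (12 and 3 under all 4 scalings, 14 and 3 as deposited), and the median difference was 1.14 against -0.03 over all genes. After Sox10 came Pou3f1, the Oct-6 factor of promyelinating cells, which read 10.58, 10.42 and 10.47 in the nerve arrays and 6.45, 6.46 and 7.0 in the SKP arrays. Foxd3 (3.01), a neural crest factor, Zeb2 (2.47), a repressor needed for Schwann cell maturation, and the Sox proteins Sox5 (2.45) and Sox6 (2.43) were higher too. Sox2, a factor of immature Schwann cells, read 9.60, 9.75 and 10.52 in the nerve arrays and 8.56, 8.41 and 7.64 in the SKP arrays. Its call (1.75 ± 0.48, adjusted p = 0.0147) was lost without nerve array 3 (adjusted p = 0.055). Egr2, the master regulator of myelination, read 9.15, 9.09 and 8.93 in the nerve arrays and 8.16, 8.16 and 5.69 in the SKP arrays, so that SKP array 3 alone was far below the nerve arrays, and its call (1.72 ± 0.57, adjusted p = 0.0324) was lost under median centring, in the fits of the 6 arrays alone and without any single nerve array. On the lower side stood Nfatc4 (-2.43), a calcineurin target, the Egr co-regulator Nab1 (-2.07), Etv4 (-1.88) and Hey2 (-1.52, not called as deposited). Pax3, a crest and Schwann precursor factor, read 6.52, 6.14 and 5.90 in the nerve arrays and 5.70, 6.01 and 6.27 in the SKP arrays, with overlapping groups (0.19 ± 0.28, adjusted p = 0.593) and a sign that turned under quantile normalisation.

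Neuregulin receptor and ligand differed in opposite directions. Erbb3 was higher in nerve Schwann cells as given above, while Nrg1, which encodes the neuregulin ligand, read 5.85, 6.05 and 5.79 in the nerve arrays and 9.68, 9.44 and 8.29 in the SKP arrays, higher in all 3 SKP arrays, a difference of -3.24 ± 0.45, adjusted p = 0.000447. Of 16 genes of neuregulin and ErbB signalling, 7 were higher and 4 lower (5 and 2 under all 4 scalings, 9 and 2 as deposited). The epidermal growth factor receptor ligands Btc (3.69), Hbegf (2.45) and Tgfa (1.25) and the receptor antagonist family member Lrig3 (1.76) were higher, and the feedback inhibitor Errfi1 (-1.88) was lower. Erbb2, the signalling partner of Erbb3, read 9.23, 9.32 and 9.83 in the nerve arrays and 7.93, 8.56 and 7.82 in the SKP arrays. Its difference was small beside that of Erbb3 and its call (1.36 ± 0.44, adjusted p = 0.0314) was lost without any 1 nerve array, without SKP array 1 or 3, and under median centring. Erbb4, another neuregulin receptor, was lower (-1.34) except in the deposited values, where it was not called.

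Several receptors for neurotrophic factors were higher in the nerve cells. Among 22 genes measured, 12 were higher and 2 lower (8 and 2 under all 4 scalings, 14 and 2 as deposited), with a median difference of 0.77. Ngfr, the low-affinity p75 receptor used to identify cultured Schwann cells, read 12.16, 12.09 and 12.39 in the nerve arrays and 7.58, 7.26 and 6.87 in the SKP arrays, a difference of 4.98 ± 0.39, adjusted p = 2.28e-05. Gfra1, the receptor for the glial factor GDNF, read 10.85, 10.61 and 11.14 in the nerve arrays and 6.35, 6.32 and 5.26 in the SKP arrays, a difference of 4.89 ± 0.35, adjusted p = 1.51e-05. The neurotrophin-3 receptor Ntrk3 (3.75), the ciliary neurotrophic factor receptor Cntfr (2.97), the sorting receptor Sort1 (2.01) and the LIF receptor Lifr (1.99) were also higher. Bdnf, a neurotrophin ligand, went the other way, reading 5.44, 5.62 and 5.46 in the nerve arrays and 7.39, 7.81 and 8.75 in the SKP arrays, with every SKP array above every nerve array (-2.48 ± 0.34, adjusted p = 0.000413). Gfra3, the artemin receptor, read 8.43, 8.94 and 7.78 in the nerve arrays and 5.36, 6.54 and 8.03 in the SKP arrays, and SKP array 3 lay within the range of the nerve arrays. It was not called, but was as deposited, with array weights, without SKP array 3 and without array 3 of the Schwann cells grown from SKPs.

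Myelin and node genes were mostly higher. Of 20 measured, 12 were higher and 1 lower (12 and 1 under all 4 scalings, 16 and 1 as deposited), with a median difference of 2.05. Besides Pmp2 and Cadm3 these were led by Mbp (5.57), the myelin basic protein, Cldn19 (5.25), the claudin of Schwann cell junctions, the phosphodiesterase Cnp (5.07) and the adhesion molecule Cadm4 (4.23). The second feature of Mbp gave a difference of only 0.97, so the size depends on which feature is read. Why the features differ was not tested. Cntn1, a node adhesion molecule, was the member called lower (-3.04), and 2 were without nerve array 2. Of the enzymes for sphingolipids and galactolipids, 5 of 26 were higher and 5 lower (5 and 5 under all 4 scalings, 10 and 5 as deposited). Those with the widest gap were the makers of galactosylceramide and its hydroxylated form: Ugt8 read 10.91, 10.65 and 10.59 in the nerve arrays and 4.58, 4.97 and 5.12 in the SKP arrays and Fa2h read 10.19, 9.93 and 9.62 in the nerve arrays and 5.29, 5.34 and 5.26 in the SKP arrays. Neither pair of groups overlapped, as in 63.0% of all genes. The other members called higher, Sgms1 (1.48), Cers5 (1.05) and B4galt6 (0.84), differed by far less. Fatty acid elongation and desaturation genes Elovl6 (3.77), Fads2 (3.11) and Fads1 (2.03) and the cholesterol exporter Abca1 (2.40) were higher and the exporter Abcg1 (-3.11) and apolipoprotein gene Apoe (-2.69) lower, in a lipid synthesis list of 45 with 10 higher and 10 lower (6 and 8 under all 4 scalings, 17 and 8 as deposited). Without nerve array 1, nerve array 2 or SKP array 2, 6 were higher.

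The glial filament and calcium-binding genes used to identify Schwann cells were higher in the nerve cells. Gfap, the filament of non-myelinating and repair Schwann cells, read 8.98, 9.22 and 8.48 in the nerve arrays and 5.12, 5.71 and 5.78 in the SKP arrays, a difference of 3.36 ± 0.30, adjusted p = 4.62e-05. Nes, the filament nestin that is often used to mark sphere-forming precursors, read 9.24, 9.06 and 9.43 in the nerve arrays and 5.64, 6.25 and 5.07 in the SKP arrays, a difference of 3.59 ± 0.27, adjusted p = 2.14e-05, and so was higher in the nerve cells than in the SKPs in every array. S100b, the calcium-binding protein used to stain Schwann cells, read 10.41, 10.12 and 10.45 in the nerve arrays and 7.42, 5.86 and 5.20 in the SKP arrays, with SKP array 1 the highest of the SKPs. The axon initial segment anchor Ank3 (4.98), the neurofilament light chain Nefl (4.10) and the microtubule proteins Mapt (2.40) and Map1b (2.39) were higher, and the contractile genes Tpm2 (-2.77), Cald1 (-1.71) and Myh10 (-1.60) were lower. Over the cytoskeletal list 13 of 40 were higher and 6 lower (9 and 4 under all 4 scalings, 28 and 4 as deposited). Among S100 genes S100a1 (2.30) was higher and S100a4 (-2.08), S100a16 (-1.70) and S100a6 (-1.40) were lower, in a list of 16 with 3 higher and 5 lower (2 and 3 under all 4 scalings, 7 and 3 as deposited). The lower count was 3 without nerve array 1 or 2.

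Adhesion genes of the immunoglobulin and cadherin families were more often higher than lower, at 12 and 3 of 26 (11 and 3 under all 4 scalings, 15 and 3 as deposited). L1cam, which binds axons, read 11.35, 11.38 and 11.56 in the nerve arrays and 5.21, 5.56 and 5.02 in the SKP arrays. Besides this gene, Cdh19 and Igsf11, the list held the endothelial and Schwann adhesion molecule Mcam (4.97), the protocadherin Pcdh17 (4.23) and Cdh1 (4.10), the E-cadherin of epithelia and of Schwann cell autotypic junctions. Pcdh18 (-3.82), Cdh13 (-2.05) and Nectin3 (-1.31) were lower, and without SKP array 3 the lower count was 5. Of 25 claudin and tight junction genes, 9 were higher and none lower (6 and 0 under all 4 scalings, 21 and 0 as deposited), led by Cldn11 (5.63) and Cldn19. No claudin list member was lower at an unadjusted p under 0.05 in the limma fit either. The higher count was 5 without nerve array 1 or 3 and 4 without nerve array 2, and 1 member was lower without SKP array 2.

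The measured genes of laminins, their receptors and the basal lamina went both ways, with counts near the shares over all genes. Of 40 genes listed, 26 were measured. Lama2, Lama4, Lamb1, Nid1, Hspg2 and Dag1 were among those not measured, so the list covers only part of the basal lamina. Of the 26, 6 were higher and 7 lower (6 and 6 under all 4 scalings, 13 and 6 as deposited). Itgb4, the beta-4 integrin of laminin-binding Schwann cells, read 11.83, 11.76 and 11.84 in the nerve arrays and 5.95, 5.30 and 6.0 in the SKP arrays. The integrin subunits Itgb8 (4.38) and Itga7 (3.17), dystrophin or Dmd (2.16) and the basal lamina proteoglycan Agrn (1.03) were higher as well. Itgb5 (-3.25) and Itga5 (-2.87), subunits of vitronectin and fibronectin receptors, were lower, as were Col4a1 (-2.82) and the laminin chains Lamc3 (-1.71), Lamb2 (-1.60) and Lama3 (-1.59). As deposited, the balance of the list turned to more higher than lower members.

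Interstitial matrix genes were more often lower in nerve Schwann cells. Of 21 collagen chains, 2 were higher and 10 lower (2 and 7 under all 4 scalings, 6 and 7 as deposited), with Col8a1 (-3.30), Col5a2 (-2.66), Col23a1 (-2.66) and Col7a1 (-2.43) lower and Col14a1 (2.03) and Col27a1 (1.15) higher. Of 47 genes for elastic fibres, proteoglycans and matricellular proteins, 4 were higher and 18 lower (4 and 16 under all 4 scalings, 10 and 16 as deposited), with a median difference of -1.07. Ccn3 read 6.64, 7.01 and 7.08 in the nerve arrays and 12.76, 13.41 and 12.75 in the SKP arrays. Spp1 read 7.83, 7.97 and 7.01 in the nerve arrays and 13.75, 13.59 and 12.62 in the SKP arrays. Both were far higher in all SKP arrays. The latent TGF-beta binding proteins Ltbp1 (-4.90) and Ltbp2 (-4.25) and fibulin Fbln1 (-3.61) were lower, while Ltbp4 (2.31) was higher. The higher count of this list was 2 without nerve array 1. Tnn, or tenascin-N, read 5.64, 5.61 and 5.49 in the nerve arrays and 11.77, 11.02 and 6.49 in the SKP arrays, so that SKP array 3 was nearer to the nerve arrays than to the other SKP arrays. Its call (-4.18 ± 1.11, adjusted p = 0.0128) held with each array left out.

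Ion channels and transmitter receptors split both ways. Among 50 channel genes 14 were higher and 13 lower (11 and 9 under all 4 scalings, 28 and 9 as deposited), so that the deposited values turned an even split into one toward nerve Schwann cells. Scn7a, a sodium channel of glia and sensory neurons, read 12.77, 12.72 and 12.72 in the nerve arrays and 8.07, 6.18 and 6.67 in the SKP arrays. The inward rectifier Kcnj10 (4.85), Trpm3 (2.71) and the potassium channel Kcna2 (2.21) were higher. Aqp1 read 7.10, 6.83 and 6.75 in the nerve arrays and 12.70, 13.06 and 12.60 in the SKP arrays. Gja1, the calcium channel subunit Cacna2d1 (-3.74) and the potassium channels Kcnn4 (-3.33), Kcnq5 (-2.80) and Kcnab1 (-2.58), the last a channel subunit, were lower. Of 45 transmitter receptors and transporters 13 were higher and 12 lower (12 and 4 under all 4 scalings, 24 and 4 as deposited), the lower count being 7 without nerve array 1 or 3. Glutamate receptor subunits Grin2b (5.38), Grik2 (4.30), Grik5 (2.48) and Grik3 (2.32) and the GABA transporter Slc6a11 (4.45) were higher. Grin2b, a subunit of NMDA receptors, read 9.89, 9.86 and 9.49 in the nerve arrays and 4.16, 4.67 and 4.28 in the SKP arrays, with no overlap. The serotonin receptor Htr2a (-3.81) and the GABA receptor subunit Gabra2 (-3.32) were lower.

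Receptors for nucleotides and lipids and other G protein-coupled receptors leaned toward the nerve cells, at 15 higher and 8 lower of 37 (15 and 3 under all 4 scalings, 25 and 3 as deposited). The lower count was 5 without nerve array 1 or SKP array 1. Entpd2, which hydrolyses extracellular ATP, read 12.94, 12.87 and 12.83 in the nerve arrays and 5.85, 5.91 and 6.28 in the SKP arrays, and the ATP-gated channel P2rx7 read 11.46, 11.10 and 10.59 in the nerve arrays and 5.36, 5.90 and 5.39 in the SKP arrays. Both were separated widely. The glial receptor Gpr37l1 (5.89), the latrophilin Adgrl3 (5.32) and the R-spondin receptors Lgr5 (4.89) and Lgr4 (3.80) were higher. The bradykinin receptor Bdkrb2 (-3.36), the adenosine receptor Adora2b (-1.91) and the nucleotide receptor P2ry2 (-1.79) were lower.

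Axon guidance genes divided by member, with 14 higher and 16 lower of 55 (11 and 12 under all 4 scalings, 24 and 12 as deposited), a balance that turned as deposited. Sema3a, a repellent semaphorin, read 6.92, 7.13 and 7.45 in the nerve arrays and 11.98, 12.10 and 11.58 in the SKP arrays, a difference of -4.72 ± 0.25, adjusted p = 4.17e-06. Its relative Sema3b read 11.49, 11.18 and 11.55 in the nerve arrays and 6.59, 6.81 and 7.71 in the SKP arrays, a difference of 4.37 ± 0.35, adjusted p = 2.57e-05 in the opposite direction. Sema3d (-4.20) and Sema5a (-3.53), the Slit receptors Robo2 (-4.61) and Robo1 (-3.18) and the ephrin Efnb2 (-3.31) went with Sema3a. The semaphorin receptor Plxnb3 (5.27), the synaptic adhesion genes Slitrk2 (3.29) and Lrrtm3 (2.16), Flrt3 (3.07) and the ephrin receptor Ephb2 (2.47) went with Sema3b.

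After cyclic loess, transcription factors of mesenchyme and position were more often higher in SKPs. In the mesenchymal list 7 of 39 stood higher and 20 lower in the nerve cells (6 and 15 under all 4 scalings, 15 and 15 as deposited), an even split as deposited. Without nerve array 2, 4 were higher. Prdm1, a marker of dermal papilla and sebaceous precursors, read 5.13, 5.01 and 4.84 in the nerve arrays and 9.28, 9.63 and 10.56 in the SKP arrays. Twist1, a mesenchymal bHLH factor, read 6.89, 7.74 and 6.79 in the nerve arrays and 10.58, 10.43 and 9.70 in the SKP arrays. The nerve arrays were below the SKP arrays for both. Klf4, Prrx2 (-3.13) and Ebf1 (-3.03) were also lower, and the orphan nuclear receptors Nr2f2 (2.59) and Nr2f1 (2.01), Foxp1 (1.69) and Runx2 (1.42) were higher. Snai2, a factor of epithelial to mesenchymal transition, sat at the threshold (-1.98 ± 0.73, adjusted p = 0.0498) and lost its call as deposited, with trended and robust variances, with the mean of the features, without any 1 nerve array, without SKP array 1 or 2 and without array 1 of the Schwann cells grown from SKPs. In the list of Hox and positional genes 1 of 36 was higher and 12 lower (1 and 5 under all 4 scalings, 14 and 5 as deposited), and the deposited values turned this balance. The 5 lower under all 4 scalings lie near the share over all genes (14.9%). Without SKP array 1 or 2, or array 3 of the Schwann cells grown from SKPs, 2 were higher. Tbx15 (-2.38), a T-box factor of trunk dermis, Hoxa5 (-2.35), Meis1 (-2.27), Emx2 (-1.38) and Hoxa7 (-1.27) were lower and Pbx3 (1.54) was higher. Hoxa5 read 5.42, 5.93 and 5.44 in the nerve arrays and 8.0, 7.82 and 8.01 in the SKP arrays, a narrow and separate range in each group.

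BMP signalling helps set the dermal papilla state in skin. Of 36 genes measured, the nerve cells had 5 higher and 15 lower (1 and 11 under all 4 scalings, 11 and 11 as deposited), even as deposited. The ligand Bmp2 read 5.54, 5.49 and 5.53 in the nerve arrays and 11.29, 10.99 and 9.53 in the SKP arrays, a difference of -5.09 ± 0.40, adjusted p = 2.62e-05. The antagonist Grem1 read 5.71, 5.48 and 5.46 in the nerve arrays and 10.97, 11.25 and 9.84 in the SKP arrays, a difference of -5.14 ± 0.32, adjusted p = 7.63e-06. Ligand and antagonist were thus both higher in all SKP arrays, as were Bmp3 (-3.12), Gdf10 (-2.90) and the pathway targets Id1 (-2.64) and Smad6 (-2.44). Another antagonist, Sostdc1, read 11.86, 12.05 and 10.64 in the nerve arrays and 6.12, 5.39 and 5.22 in the SKP arrays, and was the single member called higher under all 4 scalings. The higher count was 2 without nerve array 3 or SKP array 3 and 3 without SKP array 1. Of 20 TGF-beta and activin genes 3 were higher and 11 lower (2 and 8 under all 4 scalings, 5 and 8 as deposited), with the inhibitory Smad7 (-3.21), the activin chain Inhba (-2.70), the co-receptor Eng (-2.63), the target Pmepa1 (-2.13) and the receptor Tgfbr1 (-1.63) lower and the co-receptor Tgfbr3 (3.71) and the target Tgfbi (1.93) higher.

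Wnt ligands and secreted inhibitors differed within families. Over 48 genes 9 were higher and 15 lower (9 and 12 under all 4 scalings, 21 and 12 as deposited), a balance that turned as deposited. Wnt5a, a non-canonical ligand, read 6.23, 6.42 and 5.92 in the nerve arrays and 10.95, 10.70 and 9.33 in the SKP arrays, with Wnt7b (-3.13), Wnt16 (-3.07), the potentiator Rspo3 (-2.26) and the secreted Dkk3 (-3.10) also lower in nerve Schwann cells. Sfrp1 (3.87) was higher and Sfrp2 (-2.94) lower, though both encode secreted frizzled-related proteins. The receptors Fzd8 (2.63), Fzd3 (1.62) and Fzd6 (1.51) and the target Nkd1 (2.02) were higher.

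Of 37 genes of the FGF pathway and its ERK feedback 3 were higher, 15 lower and 19 not called (2 and 12 under all 4 scalings, 12 and 12 as deposited), even as deposited. Fgf10, a mesenchymal ligand, read 6.30, 6.58 and 5.93 in the nerve arrays and 11.06, 11.14 and 10.57 in the SKP arrays, a difference of -4.66 ± 0.43, adjusted p = 5.33e-05. Fgfr2, whose epithelial form reads Fgf10, read 5.54, 5.42 and 5.68 in the nerve arrays and 10.03, 10.01 and 8.55 in the SKP arrays, a difference of -3.98 ± 0.35, adjusted p = 4.52e-05. All nerve arrays lay below all SKP arrays for both, and Fgf7 (-2.65) and the ERK phosphatases Dusp4 (-2.74) and Dusp5 (-2.68) were lower too. Fgf1 (1.34) was higher, and the higher count was 5 without array 2 of the Schwann cells grown from SKPs. In the IGF, PDGF and VEGF list 2 of 34 were higher and 16 lower (2 and 14 under all 4 scalings, 8 and 14 as deposited), among them the ligand Pdgfc (-4.35), its receptor Pdgfra, which read 6.97, 8.17 and 6.41 in the nerve arrays and 11.57, 11.91 and 9.76 in the SKP arrays, the lymphatic growth factors Vegfd (-3.77) and Vegfc (-3.57), the scavenging receptor Igf2r (-3.77) and the stanniocalcin Stc2 (-3.40). The count of higher members was 0 without nerve array 2 or 3 and 1 without nerve array 1.

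The hedgehog ligand genes Dhh and Shh were higher in the nerve cells. Dhh, the desert hedgehog ligand by which Schwann cells shape the perineurium, read 10.32, 10.17 and 10.06 in the nerve arrays and 5.38, 5.76 and 5.69 in the SKP arrays, a difference of 4.57 ± 0.15, adjusted p = 3.95e-07. Shh, the sonic ligand, read 9.14, 9.43 and 9.24 in the nerve arrays and 5.26, 4.80 and 5.22 in the SKP arrays, a difference of 4.17 ± 0.50, adjusted p = 0.000194. Both were far above the SKP arrays in every nerve array. The secreted cofactor Scube1 (3.0) and the inhibitor Sufu (1.67) were higher and the co-receptor Cdon (-2.87) and the factor Gli3 (-1.54) were lower, in a list of 11 with 5 higher and 2 lower (4 and 2 under all 4 scalings, 8 and 2 as deposited). Of 28 Notch genes 7 were higher and 8 lower (7 and 4 under all 4 scalings, 16 and 4 as deposited), which turned to mostly higher as deposited. Notch1, a receptor that drives Schwann cell generation and dedifferentiation, read 11.08, 11.09 and 10.90 in the nerve arrays and 6.82, 7.35 and 6.05 in the SKP arrays, a difference of 4.28 ± 0.34, adjusted p = 2.66e-05. The targets split, with Hey1 (3.34) and Nrarp (1.14) higher and Hes1 (-1.60) lower, and the ligand Dll1 (-1.98) and the mediator Rbpj (-1.38) were lower.

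Of 42 enzymes and receptors for prostaglandins, retinoids and thyroid hormone, 3 stood higher and 18 lower in the nerve cells and 21 were not called (3 and 14 under all 4 scalings, 14 and 14 as deposited), an even split as deposited. Dio2, which makes active thyroid hormone, read 5.63, 5.72 and 5.21 in the nerve arrays and 10.60, 12.25 and 10.64 in the SKP arrays, a difference of -5.64 ± 0.51, adjusted p = 4.62e-05. Cyp26b1, which degrades retinoic acid, read 5.65, 5.95 and 5.90 in the nerve arrays and 10.96, 10.73 and 7.80 in the SKP arrays, a difference of -4.0 ± 0.69, adjusted p = 0.00144. Every SKP array was above every nerve array for both. Crabp1 and the relative Crabp2 (-2.77), the cyclooxygenase Ptgs1, the prostaglandin receptor Ptgfr (-3.60) and the degrading enzyme Hpgd (-3.33) were lower as well. Rxrg, a retinoid receptor of Schwann and oligodendrocyte lineages, read 10.42, 10.34 and 10.48 in the nerve arrays and 6.22, 6.45 and 5.94 in the SKP arrays and was higher (4.21 ± 0.27, adjusted p = 7.84e-06), along with Rara (0.92).

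Neural crest and melanocyte genes did not move as a block. Of 26 measured 5 were higher and 12 lower (5 and 8 under all 4 scalings, 9 and 8 as deposited), a balance that turned as deposited. The crest genes Tfap2c (-3.99) and Zic1 (-3.85), the stem cell factor gene Kitlg (-3.23) and its receptor Kit (-2.62), Mcoln3 (-3.54) and Mlana were lower, and the melanocyte regulator Mitf read 7.73, 7.30 and 6.94 in the nerve arrays and 9.82, 9.80 and 8.86 in the SKP arrays. Sox8 (2.28) was higher with Sox10 and Foxd3.

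Cytokine and immune genes differed in single members. Of 53 cytokines, chemokines and receptors 10 were higher and 15 lower (8 and 11 under all 4 scalings, 20 and 11 as deposited). Il13ra2 read 2.83, 3.10 and 2.66 in the nerve arrays and 8.23, 9.04 and 7.60 in the SKP arrays, and Il7 (-4.18), a lymphocyte growth factor, Cxcl16 (-3.72), Ccr1 (-3.61), Il13ra1 (-3.13) and the RANK ligand decoy Tnfrsf11b (-2.75) were lower. Cxcl14 (3.72), Il16 (2.12), Il34 (1.68), a ligand of the macrophage growth factor receptor, Ackr3 (1.45) and Lif (1.24) were higher. Ccr1 read 4.52, 4.46 and 4.16 in the nerve arrays and 8.78, 8.45 and 6.75 in the SKP arrays, and was highest in SKP array 1. Of 43 interferon, antigen presentation and complement genes 7 were higher and 13 lower (6 and 10 under all 4 scalings, 17 and 10 as deposited), with the peptide transport and cleavage genes Psmb8 (-2.35), Psmb9 (-2.23) and Tap2 (-2.23) lower and the guanylate-binding genes Gbp2 (2.68) and Gbp5 (1.69) higher. The higher count was 4 without nerve array 1. Both lists turned to more higher than lower members as deposited.

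The count of cell cycle genes moved with SKP array 3. Of 47 measured 4 stood higher and 13 lower in the nerve cells (2 and 8 under all 4 scalings, 4 and 8 as deposited), and without SKP array 3 the lower count was 31. Without nerve array 1, 2 were higher. Rrm2, the ribonucleotide reductase subunit of replicating cells, read 8.04, 6.95 and 6.33 in the nerve arrays and 10.50, 10.19 and 7.10 in the SKP arrays and was not called. It was called without SKP array 3 and, with all arrays, under median centring, quantile normalisation, array weights, the replicate block and the filter on dim genes. SKP array 3 lay inside the range of the nerve arrays and SKP arrays 1 and 2 far above. The inhibitors of cell division did not all go in the same direction. Cdkn2a (-3.04), Cdkn1a (-2.73) and Cdkn2b (-1.89) were lower and Cdkn1b, which encodes p27, was higher and read 11.39, 11.24 and 11.10 in the nerve arrays and 8.65, 8.81 and 9.24 in the SKP arrays. The thymidylate synthase gene Tyms (-1.63), the replication licensing gene Cdc6 (-1.59) and the mitotic kinase gene Aurkb (-1.47) were lower.

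Glycolysis, stress and ribosomal genes were more often lower than higher in nerve Schwann cells. Of 46 hypoxia and glycolysis genes 7 were higher and 23 lower (5 and 19 under all 4 scalings, 8 and 19 as deposited), with a median difference of -0.95. Hk2, the inducible hexokinase, read 5.98, 6.36 and 6.60 in the nerve arrays and 9.12, 9.92 and 11.42 in the SKP arrays. Pgk1 (-3.01) and Pkm (-2.58), glycolytic enzymes, the lactate exporter Slc16a3 (-2.90) and the collagen hydroxylases Plod2 (-2.36) and P4ha2 (-2.34) were lower. The hypoxia-inducible factor Epas1 (4.05), Ldhb (2.13) and Pdk4 (3.92), a brake on pyruvate oxidation, were higher. Of 36 serine, amino acid and stress genes 4 were higher and 18 lower (2 and 15 under all 4 scalings, 7 and 15 as deposited), led by the folate enzyme Aldh1l2 (-4.0), Gpx3 (-3.96), the quinone reductase Nqo1 (-3.69) and the glutamine transporter Slc1a5 (-2.55). Of 43 cytosolic ribosomal protein genes 2 were higher and 28 lower (0 and 26 under all 4 scalings, 3 and 26 as deposited), with a median difference of -1.16, and neither of the higher ones held under all scalings. The higher count was 1 without nerve array 1, nerve array 3 or SKP array 1 and 0 without SKP array 2. Rps3 had the largest fall (-3.60), its other feature at -2.46. Ribosomal protein genes have many processed copies in the genome, and how far signal from such copies enters these features was not tested. The remaining lists were of lipid-binding proteins, with 2 of 12 higher and 4 lower (2 and 3 under all 4 scalings, 4 and 3 as deposited), and of adipogenic genes, with 4 of 21 higher and 5 lower (2 and 4 under all 4 scalings, 13 and 4 as deposited).

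**Figure D3:**
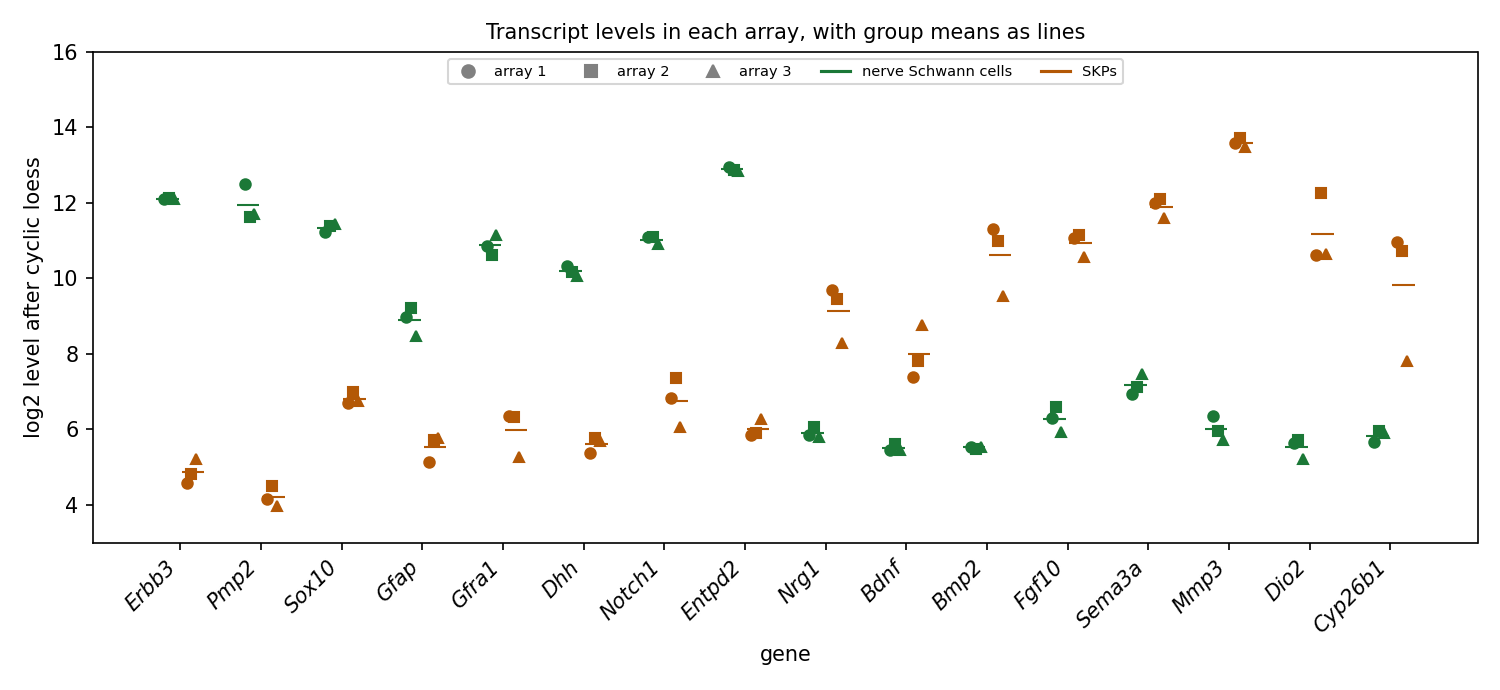
Level of 16 genes (x axis) in each array on the log2 scale after cyclic loess (y axis), nerve Schwann cells in green and SKPs in brown, with lines at the group means of 3 arrays and marker shapes for the array number. The first 8 genes are higher in nerve Schwann cells (Pmp2 by 7.74) and the other 8 lower (Mmp3 by -7.58). All 16 were picked from called genes, and the groups overlap in none of them, as in 63.0% of all genes.

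**Figure D4:**
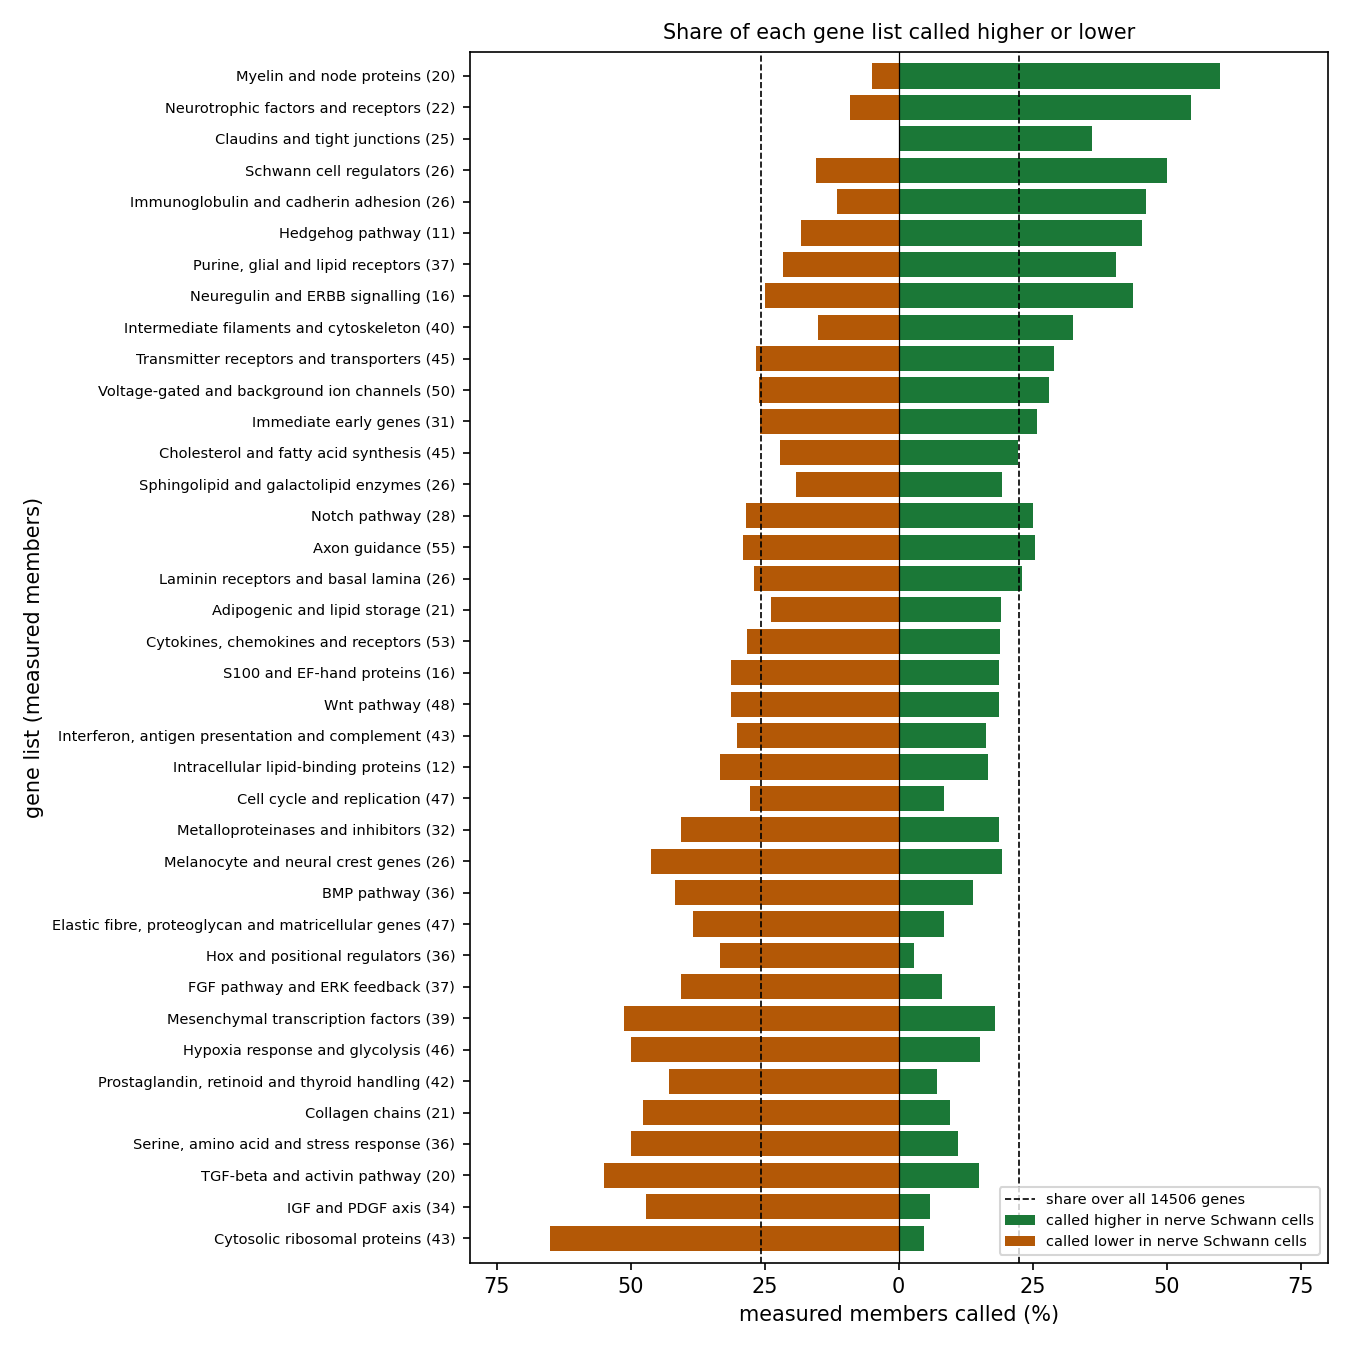
Share of the measured members of each of 38 gene lists called higher (green, to the right) or lower (brown, to the left) in nerve Schwann cells, with the number measured in brackets and dashed lines at the shares over all 14506 genes (22.4% and 25.6%). Myelin and Schwann cell lists lie toward the right and ribosomal, matrix and growth factor lists toward the left. The order holds for cyclic loess. In the deposited values the lists shift to the right, as do all genes, of which 7211 were called higher and 2158 lower. Several lists, Hox and positional regulators among them (1 and 12 against 14 and 5), turn there.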

How the data were processed

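RNA of 9 cultures was measured on a whole-transcript rat gene array, and per the submitters' processing notes the deposited log2 values come from RMA, run in Affymetrix Expression Console, of which no version is given in the sources used here. RMA corrects background, normalises and summarises probes. Of 29214 features, 15310 carry a single symbol in the platform annotation, 323 several and 13581 none. The feature with the highest mean over the 9 arrays as deposited stood for each of the 527 genes with several, which gave 14506 genes. All features of all 9 arrays were rescaled by cyclic loess in limma 3.58.1 (R 4.3.3), a choice that assumes no overall shift between groups. A linear model with empirical Bayes moderation gave differences, standard errors and p-values, adjusted by Benjamini-Hochberg over all 14506 genes. The code was tested on simulated data. Arrays give no read depth, and their number (3 a group) limits the precision. No detection calls were used.

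The comparison, its gene lists and the rule for naming genes were chosen with earlier results of these data known. Named were, among called genes whose groups do not overlap, the 12 furthest up and the 12 furthest down in nerve Schwann cells, up to 6 called members a direction in each list, marker genes, a short set of fixed genes, and defining members that were not called. Jun, Junb and Plaur were chosen after their values were seen. Symbols follow the platform annotation, and 15279 of the single-symbol features matched the GRCr8 gene table by Entrez number. Alternatives were other scalings, other fits and thresholds, a filter on dim genes, other ways to join features, a replicate block and leaving out each array.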

Additional observations from a re-analysis of the deposited data

How the results depend on the processing

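The counts were 3244 higher and 3716 lower genes. As deposited they were 7211 and 2158. Leaving out the dimmer genes (7253 tested) gave 1944 and 2412, a 2-fold minimum 1223 and 1845, and a threshold of 0.01 gave 2096 higher genes. The other settings stayed within 1.5 times of both counts. Leaving out each of the 9 arrays gave 2442 to 3425 higher and 2882 to 3888 lower genes.

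With the replicate number as a block, 3031 genes were higher and 3567 lower. Deviations of same-numbered nerve and SKP samples from their group means correlated at 0.0384, 0.08 and 0.175. Differently numbered samples gave -0.145 to 0.0871. Deviations from a mean of 3 arrays depend on each other, so these values cannot settle whether same-numbered samples share a source. Such sharing was not tested.

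Of 288 measured genes named, 283 were called. Of these, 278 kept their call under the other 3 scalings and 279 with any 1 array left out. Most were named for being called with a wide difference, so these counts do not speak for all genes. Over all genes, 2224 of the 3244 called higher and 2155 of the 3716 called lower kept their call under all 4 scalings. Pax3, not called, turned to -0.05 under quantile normalisation and -0.08 with the 6 arrays rescaled and fitted alone.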
